A study of Homo sapiens with 6 samples.

Results

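The genes described are 10 colony-stimulating factors, related myeloid growth factors and their receptors, taken by gene name from a count table of 58735 genes. There are 6 ligands (CSF1, CSF2, CSF3, IL34, KITLG and FLT3LG) and 4 receptor genes (CSF1R, CSF2RA, CSF2RB and CSF3R), and all 10 names were found. The levels of their mRNA were compared between MDA-MB-231 cells and an adriamycin-resistant line made from them. MDA-MB-231 is a triple-negative breast cancer cell line, and adriamycin (ADR, doxorubicin) is an anthracycline that damages DNA. The parent cells carry the genotype label WT and had no resistance selection, whereas the ADRr cells carry the label ADR resistant and were derived by stepwise exposure to rising doses of ADR followed by limiting dilution to single clones. No other allele or agent is named for either group, and the sources used here do not say whether ADR was present at harvest. Each group had 3 RNA-seq libraries, and nothing says that they came from separate cultures, so that p-values measure only the spread between these libraries. A line grown from a clone also carries whatever set that clone apart from the other parent cells, which cannot be told apart from resistance in this design.

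Colony-stimulating factors are secreted cytokines that drive the survival, division and maturation of myeloid cells. CSF1 (M-CSF) and IL34 share the receptor tyrosine kinase CSF1R on macrophages, CSF2 (GM-CSF) binds a receptor built of the specific chain CSF2RA and the signalling chain CSF2RB, and CSF3 (G-CSF) binds CSF3R on neutrophils and their precursors. KITLG (stem cell factor) and FLT3LG bind the receptor tyrosine kinases KIT and FLT3 on blood progenitors. Carcinoma cells are a known source of several of these ligands, through which tumors recruit and shape macrophages and neutrophils.

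The libraries held 15983985 to 18272314 counts, and in a library with no count for a gene, counting error alone allows a level of 3 counts, which is 0.164 to 0.188 CPM after scaling by library size. Correlation of log2 CPM was 0.989 to 0.993 within groups and 0.935 to 0.937 between groups. The labelled cell type was checked with 8 marker genes. VIM, CD44, AXL and KRT18 were taken as present and ESR1, PGR, ERBB2 and EPCAM as low. VIM, CD44, AXL and KRT18 were at 2803 normalized counts or more in both groups, ESR1 had 0 to 1 count and PGR had 0. VIM (log2 fold change -0.56), AXL (-0.62) and KRT18 (-0.65) were called lower in ADRr cells and CD44 (0.80) higher. ERBB2 and EPCAM, taken as low, were detected in all libraries. ERBB2 fell from 2059 to 870 normalized counts, and EPCAM rose from 215 to 461 (log2 fold change 1.10).

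The mRNAs of the ligands carry different numbers of the pentamer ATTTA, the core of the AU-rich elements that keep many cytokine mRNAs short-lived. The stretch of 30 bases in the 3′ UTR that holds the most copies is given for the 2 ligands best known for such elements and for CSF1, as read from the GENCODE 29 transcripts, with the pentamers in capitals. They lie on the plus strand of GRCh38 at chr5:132076072-132076101 for CSF2, chr17:40016975-40017004 for CSF3 and chr1:109930911-109930940 for CSF1.
CSF2: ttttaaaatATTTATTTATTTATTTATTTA
CSF3: tcccatgtATTTAtctctATTTAatATTTA
CSF1: tttatataaagtcATTTAaatatctATTTA
The CSF2 window holds 5 overlapping copies, a number reached in 0.209% of 18676 coding genes with a 3′ UTR of at least 30 bases. CSF3 had 3 in its densest window, a number reached in 2.65% of these genes, and CSF1 had 2, reached in 20.8%. Over the whole 3′ UTR, CSF2 had 8 copies in 318 bases, CSF3 7 in 854, CSF1 4 in 2154 and KITLG 21 in 4426. The 3′ UTRs of IL34, CSF1R and CSF3R had none. A single transcript was read for each gene, the longest of those marked as principal, and other 3′ UTRs of these genes were not counted.

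Sequence before the start of transcription was read from the RefSeq promoter table (GRCh38.p14), which holds 6 of the 10 genes. The 250 bases before the start are shown for CSF2, whose mRNA rose, at chr5:132073539-132073788 on the plus strand, and for CSF1R, whose mRNA fell, at chr5:150113366-150113615 on the minus strand, with motif matches in capitals.
CSF2: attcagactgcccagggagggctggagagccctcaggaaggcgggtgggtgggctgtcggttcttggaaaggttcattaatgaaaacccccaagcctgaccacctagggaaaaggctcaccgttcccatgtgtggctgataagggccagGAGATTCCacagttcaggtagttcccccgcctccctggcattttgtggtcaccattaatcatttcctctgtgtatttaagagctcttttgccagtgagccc
CSF1R: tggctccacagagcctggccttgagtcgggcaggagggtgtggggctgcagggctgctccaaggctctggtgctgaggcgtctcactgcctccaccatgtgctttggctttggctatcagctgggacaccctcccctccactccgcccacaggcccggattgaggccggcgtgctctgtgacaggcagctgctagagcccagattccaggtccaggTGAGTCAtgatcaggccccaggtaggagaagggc
The motifs were searched on both strands over 300 bases from 250 before to 50 after the start: TATAAA, the AP-1 motif TGANTCA, GAGATTCC (the core of the CK-1 element of cytokine promoters), the C/EBP motif TTGCNNAA and the kappa B consensus. CSF2 holds GAGATTCC from base -101 on the plus strand, a sequence present in 0.869% of 35116 promoters. CSF1R holds TGANTCA from base -34, which 7.71% of promoters hold and which reads as a match on both strands. The table gives CSF1R a further start, at which the 300 bases (chr5:150086505-150086804) hold none of the motifs. CSF2RA holds a kappa B consensus from base 11 after the start (11.3% of promoters), and KITLG holds TATAAA from base -29 (11.5%). CSF3R, which had no counts, holds TATAAA from base -162 and TTGCNNAA from base -206 (10.5%) at its first listed start and none at its other. FLT3LG holds none of the motifs at either of its listed starts. These are matches of letters only, and no binding was measured.

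Of the 10 genes, 7 passed the filter on low counts and were tested with edgeR's quasi-likelihood test among 15242 genes. In ADRr cells 3 were called higher (CSF2, CSF2RA and IL34) and 4 lower (CSF1, CSF3, CSF1R and KITLG), where a call needs an adjusted p not above 0.05 together with a 1.2-fold difference. Over all tested genes 29.2% were called higher and 29.6% lower, so that a call alone does not single these genes out. In all 7 genes the libraries of the groups did not overlap, which was also seen for 34.5% of all tested genes with ADRr above parent and for 34.7% with ADRr below. With the threshold on the log2 scale itself set to 1.2, CSF2 and IL34 were called higher and CSF1R lower, where 7.31% and 6.38% of tested genes passed in each direction. IL34 is in each of the counts above although it passed the filter only through its ADRr libraries, where it is high. The median log2 fold change was -0.55 over the 7 genes and -0.0061 over all tested genes. In bulk RNA, a smaller share of cells with an mRNA and less of it per cell cannot be told apart.

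**Figure D1:**
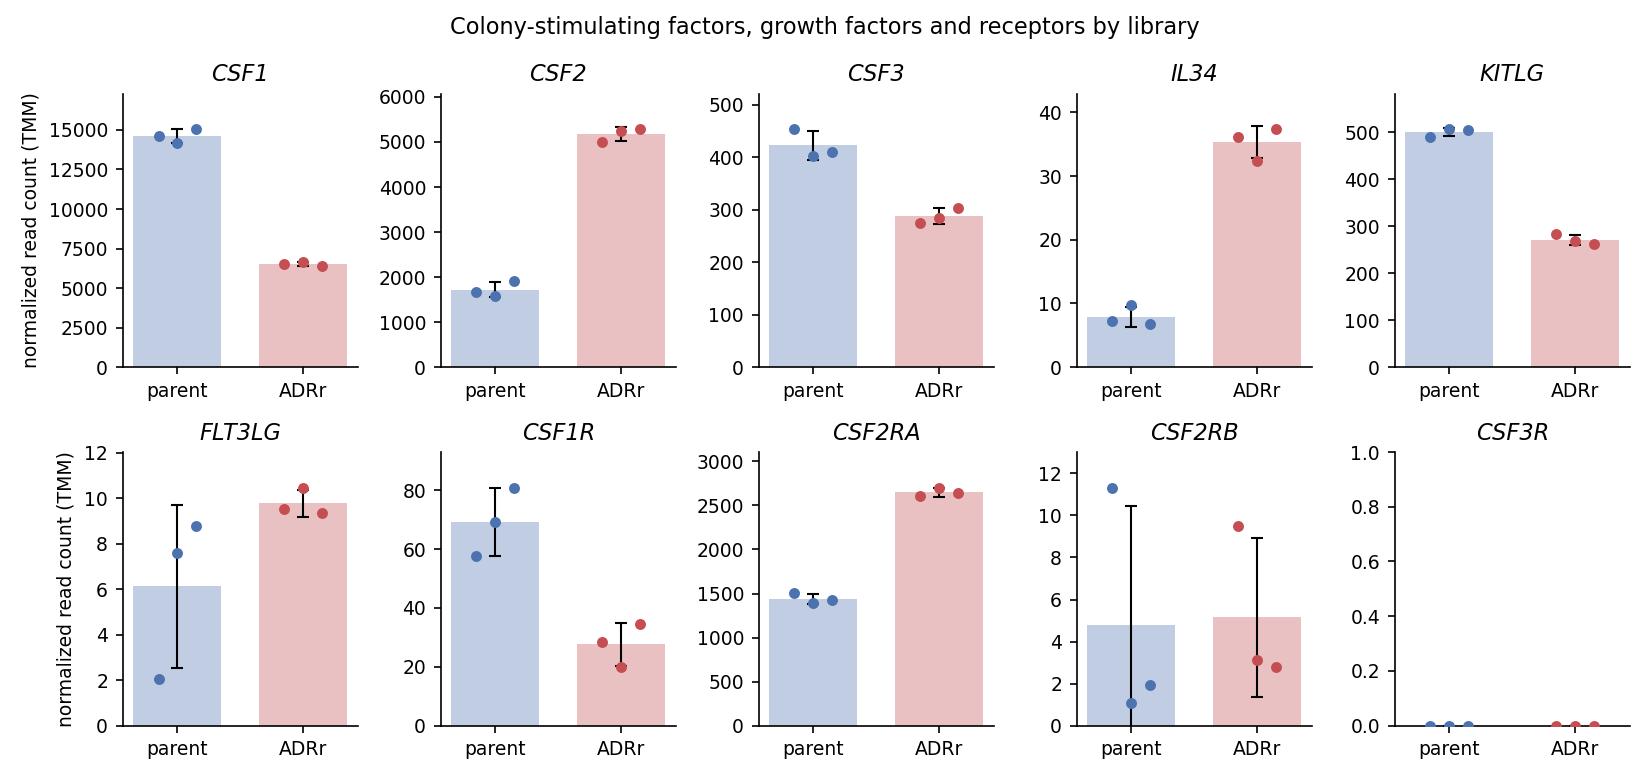
Normalized read counts (scaled by TMM factors) of the 10 genes in parent (blue) and ADRr (red) libraries, each panel with its own axis from 0. Points are libraries, bars are means and error bars are SD over 3 libraries. CSF2 stands at 1578 to 1911 in parent and 5005 to 5284 in ADRr libraries, and CSF1 at 14203 to 15047 and 6411 to 6640.

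CSF2, the ligand that promotes granulocytes and macrophages, had the largest increase among the members other than the scarce IL34. Normalized counts were 1677, 1578 and 1911 in the parent libraries and 5005, 5248 and 5284 in the ADRr libraries. The lowest ADRr library was thus far above the highest parent library, and the means were 1722 ± 171 and 5179 ± 152 (SD, n = 3). The log2 fold change was 1.59 (SE 0.062; edgeR adjusted p = 6.5e-16), a 3.00-fold rise, and 4.22% of tested genes had a larger increase. The gene (chr5:132073790-132076170, plus strand) is the shortest of the set at 787 exonic bases.

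CSF1, the main growth factor of macrophages, moved the other way. Its normalized counts were 14631, 14203 and 15047 in parent cells and 6530, 6640 and 6411 in ADRr cells. All ADRr libraries lay below all parent libraries, with means of 14627 ± 422 and 6527 ± 115 (SD, n = 3). The log2 fold change was -1.16 (SE 0.046; edgeR adjusted p = 7.4e-16), so that CSF1 was 2.24-fold higher in parent cells, and 6.76% of tested genes had a larger decrease. CSF1 lies at chr1:109910242-109930992 on the plus strand and kept the most counts of the 10 genes in both groups.

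IL34, the other ligand of CSF1R, was scarce. It had 7, 9 and 7 counts in the parent libraries and 38, 31 and 40 in the ADRr libraries, or 7.92 ± 1.59 and 35.3 ± 2.56 normalized counts (SD, n = 3). The groups did not overlap, but the parent counts are too low to have passed the filter, so that the gene was tested only through its ADRr libraries, where it is high, and had to differ. Its log2 fold change was 2.15 (SE 0.37; edgeR adjusted p = 2.0e-05). IL34 (chr16:70579895-70660682) starts 2.22 kb from SF3B3 and ends 0.522 kb from MTSS1L, which had 3190 and 883 normalized counts in ADRr cells, and the share of reads from these neighbors was not tested.

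CSF3, which drives neutrophil production, fell moderately. Normalized counts of 454, 403 and 411 in parent libraries stood against 275, 285 and 304 in ADRr libraries. The lowest parent library stayed above the highest ADRr library, and the means were 422.8 ± 27.1 and 288 ± 15.01 (SD, n = 3). In the fit CSF3 changed by -0.55 on the log2 scale (SE 0.094; edgeR adjusted p = 2.1e-05), and 42.5% of tested genes had a larger absolute change. CSF3 lies at chr17:40015361-40017813 on the plus strand.

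Of the growth factors for progenitors, KITLG was expressed and FLT3LG hardly so. KITLG (chr12:88492793-88580851, minus strand) had 490, 506 and 505 normalized counts in parent libraries and 283, 268 and 262 in ADRr libraries, without overlap. KITLG changed by -0.89 on the log2 scale (SE 0.089; edgeR adjusted p = 9.4e-09), or 1.85-fold more in parent cells. FLT3LG (chr19:49474207-49486231) had 2, 7 and 9 counts in parent libraries and 10, 10 and 10 in ADRr libraries, which left it below the filter. Fitted with no filter, its log2 fold change was 0.66, with a 95% interval of -0.54 to 1.85 and an edgeR adjusted p of 0.45, so that a difference was not detectable at this depth.

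Among the receptor genes, CSF2RA was well expressed and rose, CSF1R was scarce and fell, and CSF2RB and CSF3R were near or at 0. CSF2RA, the chain that gives the GM-CSF receptor its specificity, had 1502, 1394 and 1421 normalized counts in parent libraries and 2604, 2701 and 2644 in ADRr libraries. The highest parent library and the lowest ADRr library were thus far apart. The log2 fold change was 0.88 (SE 0.056; edgeR adjusted p = 3.6e-12), a 1.84-fold rise that took it from 1439 ± 56.3 to 2650 ± 49.0 (SD, n = 3). CSF2RA (chrX:1268800-1310381, plus strand) lies in the pseudoautosomal region shared by X and Y, and the table counts it on X alone.

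CSF2RB, the chain through which the GM-CSF receptor signals, had 11, 1 and 2 counts in parent libraries and 10, 3 and 3 in ADRr libraries. In each group 1 library held most of the counts and the others were at or below 3. The unfiltered fit gave a log2 fold change of 0.11 with a 95% interval of -1.42 to 1.64 (edgeR adjusted p = 0.94), which leaves room for more than a doubling in either direction. The alpha chain was thus well represented in both groups with little mRNA of its partner. CSF3R (chr1:36466043-36483278) had 0 counts in every library, which allows up to 0.188 CPM.

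CSF1R, the receptor of CSF1 and IL34, had 56, 64 and 83 counts in parent libraries and 30, 19 and 37 in ADRr libraries. After normalization the means were 69.2 ± 11.6 and 27.7 ± 7.38 (SD, n = 3), with the lowest parent library at 57.6 and the highest ADRr library at 34.6. The fitted log2 fold change was -1.31 (SE 0.26; edgeR adjusted p = 1.1e-04). Within CSF1R (chr5:150053291-150113372, minus strand) lies RPL7P1, a processed pseudogene on the opposite strand with a mean of 813 counts in parent and 925 in ADRr libraries. Whether counting used strand is not given in the sources used here, and the part of such reads in the CSF1R counts was not tested.

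**Figure D2:**
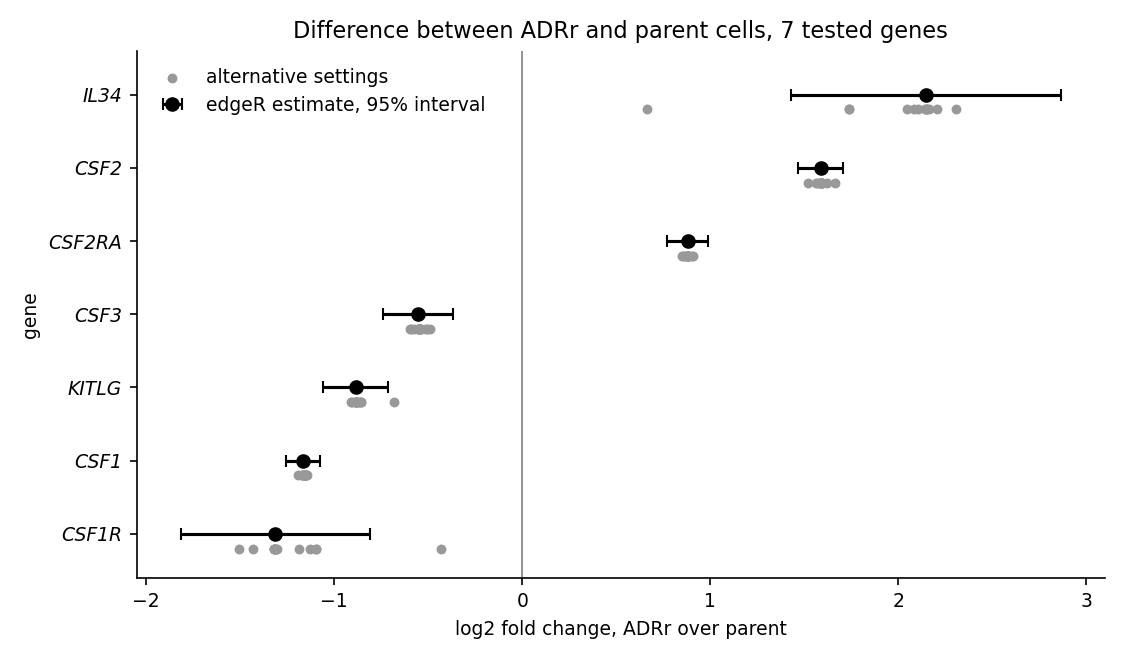
Log2 fold change of ADRr over parent for the 7 tested genes. Black points are edgeR estimates with 95% intervals, and gray points are the estimates under the alternative settings. No gene crosses 0 under any setting, with CSF1R between -1.51 and -0.43 and IL34 between 0.67 and 2.31.

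Levels of different genes can be compared per length, as FPKM, in which the authors scaled fragment counts by gene length and library depth. In parent cells the order by mean FPKM was CSF1 (154), CSF2 (125), CSF2RA (21.5), CSF3 (10.9), KITLG (4.61), CSF1R (0.768), IL34 (0.203), FLT3LG (0.123) and CSF2RB (0.055), with CSF3R at 0. Libraries of neighbors in this order overlapped for IL34 and FLT3LG and for FLT3LG and CSF2RB, and not for the other pairs. In ADRr cells CSF2 (377) came before CSF1 (69.1), followed by CSF2RA (39.7), CSF3 (7.44) and KITLG (2.50), and IL34 (0.907) passed CSF1R (0.308). No neighbors overlapped there.

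**Figure D3:**
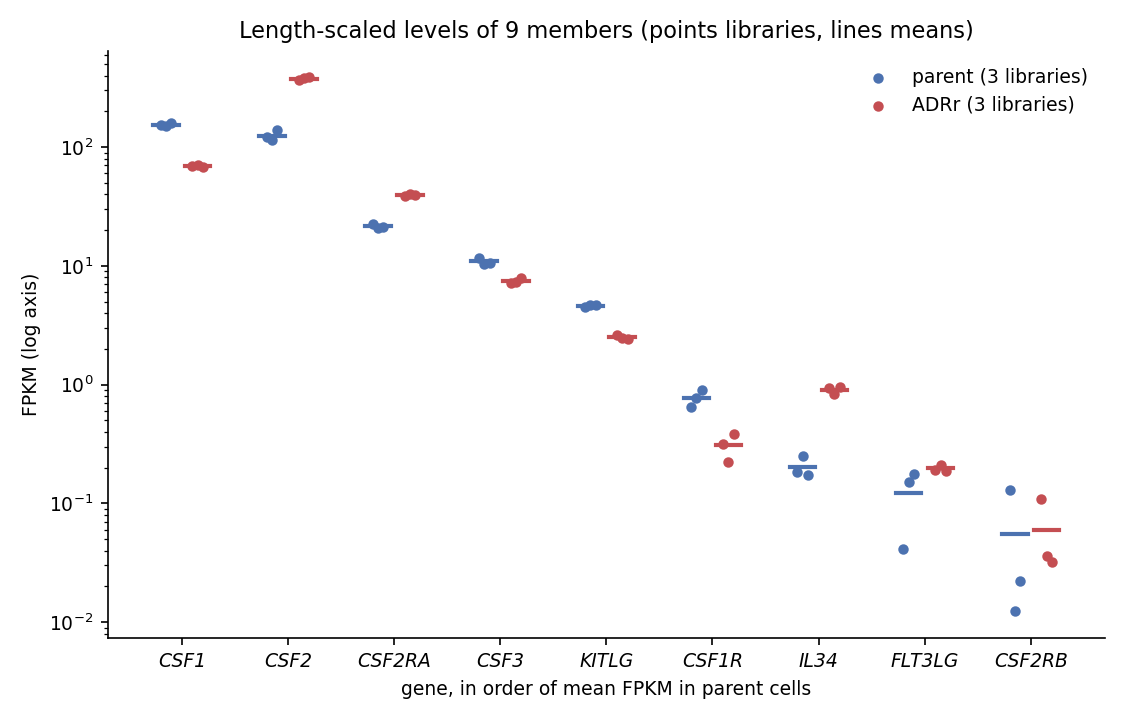
FPKM of 9 genes on a log axis, in order of their mean in parent cells, with points for libraries and lines for means of 3 libraries. CSF1 and CSF2 change places between the groups, from 154 and 125 in parent to 69.1 and 377 in ADRr cells. CSF3R, at 0 throughout, is left out.

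Set against all tested protein-coding genes, CSF2 had a higher FPKM than 98.3% of them in parent cells and 99.6% in ADRr cells. CSF1 went from 98.8% to 95.9%, CSF2RA from 82.8% to 91.8% and CSF3 from 66.7% to 56.1%. The ligands of CSF1R differed in scale throughout, since CSF1 stayed at 69.1 FPKM in ADRr cells where IL34 reached 0.907.

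The balance of the ligands can be read within each library, in ratios chosen after the values were seen and given here without a test. FPKM of CSF2 over that of CSF1 was 0.789, 0.765 and 0.874 in the parent libraries and 5.28, 5.44 and 5.67 in the ADRr libraries. CSF2 was thus below CSF1 in all 3 parent libraries and above it in all 3 ADRr libraries. For CSF2 over CSF3, 11.5 ± 1.41 in parent cells stood against 50.8 ± 1.60 in ADRr cells (SD, n = 3).

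**Figure D4:**
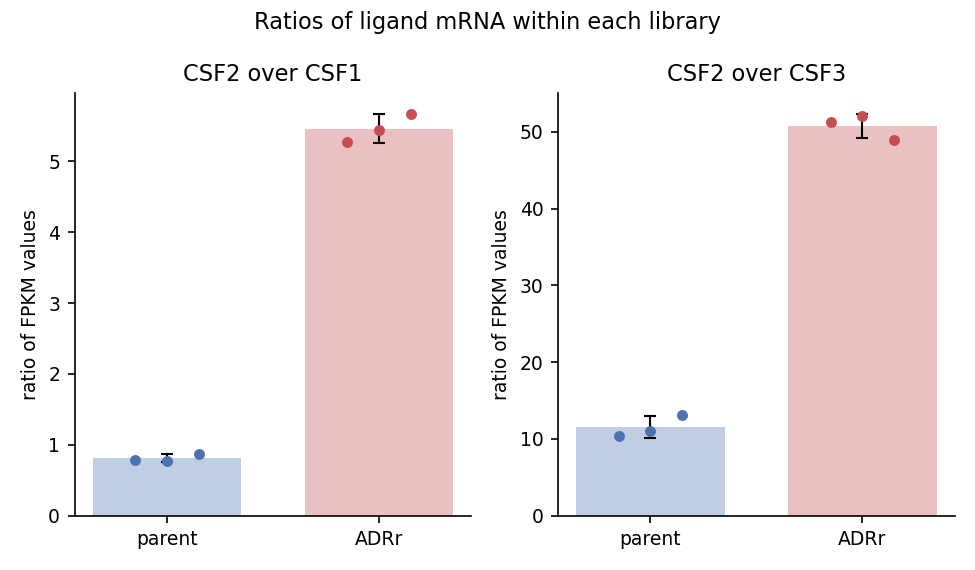
Ratio of FPKM values of CSF2 over CSF1 (left) and CSF2 over CSF3 (right) in each library, with bars for means and error bars for SD over 3 libraries. CSF2 over CSF1 lies below 1 in the parent libraries and between 5.28 and 5.67 in the ADRr libraries.

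Of 12 related blood cell ligands and receptors, only 3 were tested, and all of them were called lower in ADRr cells (median log2 fold change -0.39). Among all tested genes 29.6% were called lower. IL3RA, the IL-3 receptor chain that also pairs with CSF2RB, had 13, 26 and 12 counts in parent libraries and 2, 4 and 4 in ADRr libraries (log2 fold change -2.39, SE 0.55; edgeR adjusted p = 6.2e-04), and it passed the filter only through its parent libraries. EPOR, the erythropoietin receptor, changed by -0.39 (SE 0.14; adjusted p = 0.016), and SDC1, a proteoglycan that can bind growth factors, by -0.39 (SE 0.068; adjusted p = 2.5e-05). The EPOR call did not hold without parent replicate 3 (-0.27, adjusted p = 0.0996), without ADRr replicate 2 (-0.29, adjusted p = 0.095), with DESeq2 (adjusted p = 0.0625) or with limma on log2 FPKM (adjusted p = 0.0594 to 0.0892). KIT and FLT3, the receptors of KITLG and FLT3LG, had 0 counts in all libraries, as did IL3 and IL5RA.

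Of 28 signal transducers downstream of the receptors, 23 were tested. Of these, 11 were called higher, 5 lower and 7 neither way, with a median log2 fold change of 0.32. The shares among all tested genes were 29.2% higher and 29.6% lower. Among the feedback inhibitors of cytokine receptors, SOCS2 and SOCS3 were called in opposite directions. SOCS2 rose from 45.4 ± 6.48 to 249.96 ± 7.51 normalized counts (log2 fold change 2.46, SE 0.15; edgeR adjusted p = 1.9e-12), and SOCS3 fell from 552.7 ± 44.8 to 257.8 ± 16.3 (log2 fold change -1.10, SE 0.095; adjusted p = 7.2e-10). The other largest increases were in PIK3CD, a catalytic subunit of PI3 kinase (1.06), and GAB2, a docking adaptor (0.90), and the other largest decreases in the transcription factor CEBPD (-0.90) and the Janus kinase TYK2 (-0.67). CISH, an inhibitor induced by STAT5, did not pass the test, with a log2 fold change of -0.32. Neither did SOCS1, with -0.36 (SE 0.21; edgeR adjusted p = 0.14).

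A further list held 12 genes that act on the mRNAs or on the membrane forms of these ligands, and all 12 were tested. In ADRr cells 5 were called higher and 3 lower, with 4 not called and a median of 0.19, where 29.2% and 29.6% of all tested genes were called. KHSRP, at 0.2625 on the log2 scale (SE 0.048; edgeR adjusted p = 4.9e-05), fell just short of the fold threshold and was not called. The ZFP36 family, proteins that bind AU-rich elements and promote decay, rose in all its 3 listed members, with log2 fold changes of 1.14 for ZFP36 (SE 0.11; edgeR adjusted p = 4.4e-09), 0.99 for ZFP36L1 (SE 0.051; adjusted p = 8.4e-14) and 1.14 for ZFP36L2 (SE 0.065; adjusted p = 6.4e-13). HNRNPD (AUF1), which also binds these elements, fell by 0.74 and the RNase ZC3H12A (Regnase-1) fell by 1.39 on the log2 scale. The sheddases that release membrane-bound CSF1, KITLG and other ligands diverged: ADAM17 rose from 855 to 1756 normalized counts and ADAM10 fell from 9622 to 2954. MMP9, a metalloprotease that can release KITLG, rose from 12.9 ± 4.22 to 217.6 ± 15.8 normalized counts (log2 fold change 4.05, SE 0.21; adjusted p = 1.0e-13), having passed the filter only through its ADRr libraries.

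Of 14 cytokines and other genes often induced along with CSF2 and CSF3, 11 were tested. Of these, 9 were called higher, 1 lower and 1 neither way, with a median log2 fold change of 0.86. All tested genes together had 29.2% called higher and 29.6% lower. IL1A had the largest increase, 5.23 on the log2 scale (SE 0.085; edgeR adjusted p = 2.5e-22), from 347.9 ± 66.9 to 13039 ± 379 normalized counts. IL1B (3.78, SE 0.078) and IL6 (1.97, SE 0.052) followed, and the chemokine CXCL1 was the gene called lower (-0.58, SE 0.049). CCL2, among the genes called higher, passed the filter only through its ADRr libraries. CSF2 lay on the side of the list's median and CSF3 on the opposite side.

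**Figure D5:**
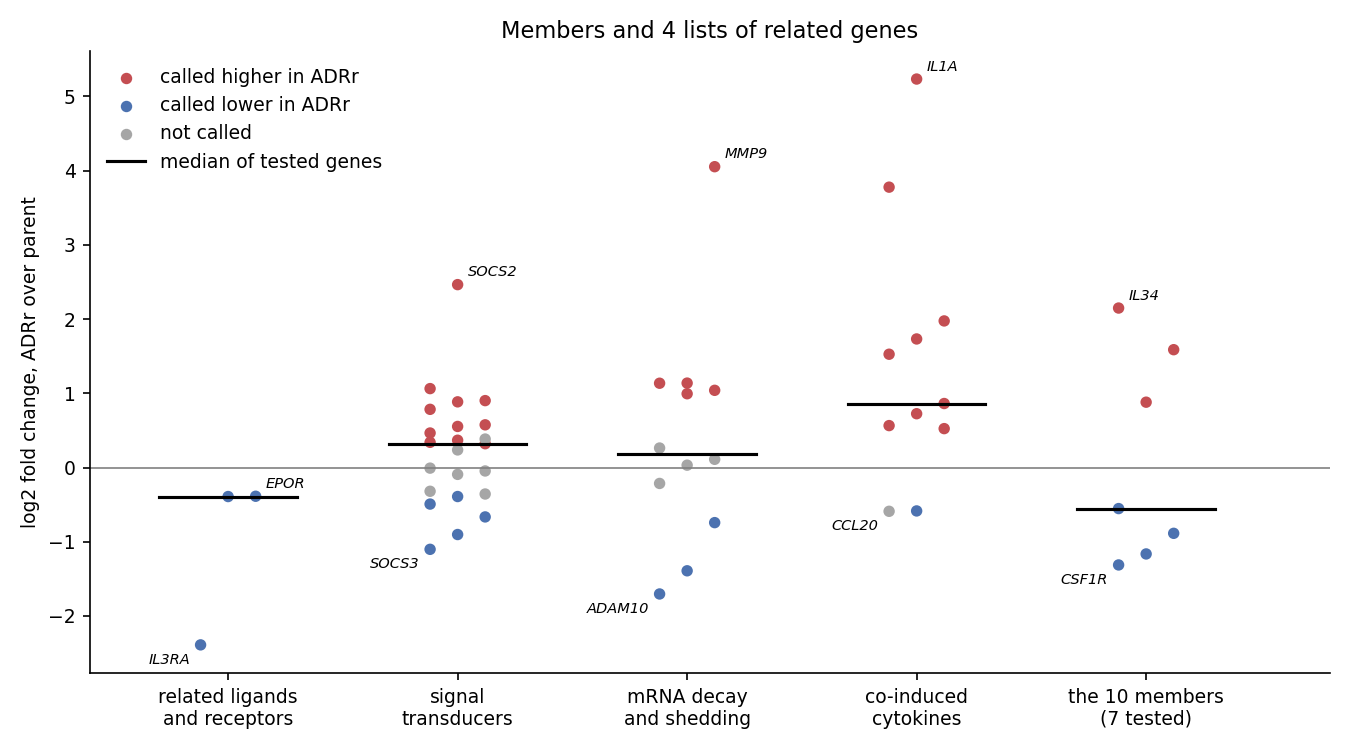
Log2 fold change of ADRr over parent for the tested genes of the 4 lists and for the 7 tested members, with genes called higher in red, called lower in blue and not called in gray. Black lines are medians, at -0.39, 0.32, 0.19, 0.86 and -0.55 from left to right.

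Blood cells as a source of these mRNAs were looked for with 16 leukocyte and myeloid markers, of which 2 were tested. TYROBP, MPO, ELANE, C1QA and AIF1 had 0 counts in all libraries, and PTPRC (CD45), LYZ and CD3E had at most 2 in any. Other markers had a few counts, more of them in ADRr cells. ITGAM (CD11b), an integrin of myeloid cells, had 0 in each parent library and 6, 6 and 7 in the ADRr libraries. CD53 had 0 in each parent library and 4, 1 and 3 in the ADRr libraries, CD163 had 5 in ADRr replicate 1 and 0 elsewhere, FCER1G had 0 to 1 in parent and 0 to 3 in ADRr libraries, and CD33 had 0 to 4 and 2 to 6. LAPTM5 rose from 919 to 1470 normalized counts, and CD14 had 101 and 90.9. The summed level of the list was 56.2 to 60.7 CPM in parent libraries and 90.4 to 96.2 CPM in ADRr libraries. Most of this sum came from LAPTM5 alone, with 853, 886 and 945 counts in parent and 1500, 1444 and 1574 in ADRr libraries. The sum thus follows LAPTM5 and not the list as a whole. The part of these counts in the results was not tested.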

How the data were processed

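Polyadenylated RNA from 3 parent and 3 ADRr libraries was sequenced from both ends by the authors on a NovaSeq instrument. Per the submitters' processing notes, fastp, HISAT2 2.0.5, featureCounts 1.5.0-p3 and DESeq2 1.20.0 were used with GRCh38. The deposited tables hold whole-number counts per gene and FPKM values, which the authors scaled by gene length and depth, on GENCODE 29 gene models. Strandedness is not given in the sources used here. The series text speaks of time points that no sample label carries, and none was used.

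The count analysis used edgeR 4.0.16 under R 4.3.3. Genes kept by filterByExpr (15242) were normalized by TMM (factors 0.987 to 1.01) and tested by the quasi-likelihood test with Benjamini-Hochberg adjustment over all of them, and 43493 genes were not tested. Normalized counts are counts divided by TMM-scaled library size, relative to the mean of the 6 libraries. Levels were taken from FPKM. Intervals and floors cover counting error or library spread only. Each library was taken as 1 sample. Replicate libraries differed by more than sampling noise (chi-square per degree of freedom 2.52 to 7.71), which does not show that they came from separate cultures.

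Alternatives were DESeq2 1.42.0 or its size factors, filters on low counts, limma 3.58.1 on log2 FPKM, a replicate block, leaving out each library, and other thresholds. Named genes were all members, all called genes of the lists on related receptors and on decay and shedding, the 3 largest called changes each way of the other lists, and the nearest tested neighbors. CISH, CD14 and other genes not called were named after their values were seen. A marker gene of the leukocyte list is not reported here. The members and lists were chosen with earlier results of these data known.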

Additional observations from a re-analysis of the deposited data

How the results depend on the processing

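The 7 tested members kept their direction and their call under each alternative normalization, filter, unit and tool that tested them, and under each left-out library. IL34 was not tested where 10 counts were required in every library, which lowered the members called higher to 2. With the log2 threshold set to 1.2, the count of members called lower dropped to 1, and 1114 genes were called higher and 972 lower in place of 4451 and 4507. On log2(FPKM + 1) the change was -0.43 for CSF1R and 0.67 for IL34, since that pseudocount exceeds their levels. Of the related ligands and receptors, 2 in place of 3 were called lower with DESeq2, with limma, with 10 counts in every library, without parent replicate 3 and without ADRr replicate 2, and 1 at the threshold of 1.2. At that threshold, 1 signal transducer was called higher and 0 lower, 1 gene of the decay and shedding list higher, and 5 of the co-induced cytokines higher and 0 lower. In the decay and shedding list, 6 genes in place of 5 were called higher with DESeq2, its size factors, limma or the replicate block. The same held with adjusted p alone and without parent replicate 3, ADRr replicate 1 or ADRr replicate 2. In the co-induced cytokines, 2 genes were called lower in place of 1 without parent replicate 1 (TNF added) or without ADRr replicate 1 (CCL20 added), both named after their values were seen. TNF had 1, 10 and 14 counts in parent and 2, 2 and 6 in ADRr libraries. Without parent replicate 1 it passed the filter only through its parent libraries, where it is high. The replicate block gave 4406 genes higher and 4464 lower and the same counts of members, 3 and 4. Same-numbered libraries correlated in their deviations from group means by 0.0074, -0.021 and -0.046, so that the numbers do not pair the libraries. Depth limits CSF2RB, FLT3LG and CSF3R, for which only wide intervals or upper limits can be given.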

Other observations

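The nearest tested gene on either side of each tested member was listed, 14 genes in all, and 7 were called in the direction of their member, 3 in the other direction and 4 neither way. Over all tested genes 29.2% were called higher and 29.6% lower. Shares by position were not computed, and whether neighbors share a direction more often than other genes was not tested. At the CSF3 locus both neighbors fell with it, PSMD3 by 1.62 (17.4 kb before) and MED24 by 1.08 on the log2 scale (1.28 kb after). Around CSF2RA in the pseudoautosomal region, 3 cytokine receptor genes lie in a row and differed in sign. CRLF2, the TSLP receptor chain, had 53.8 ± 22.6 normalized counts in parent and 152.9 ± 29.7 in ADRr libraries (log2 fold change 1.501, SE 0.22, edgeR adjusted p = 3.2e-06). CSF2RA changed by 0.88 and IL3RA, 26.2 kb after it, by -2.39 (SE 0.55). IL3RA had only 13, 26 and 12 counts in parent and 2, 4 and 4 in ADRr libraries. It passed the filter only through its parent libraries, where it is high, so that it had to differ. It is among the 3 neighbors called in the other direction. Next to CSF2, FNIP1 changed by 0.83 and P4HA2 by 0.17, the latter not called. Next to CSF1, AHCYL1 changed by -0.43 and GSTM3 by -0.24, the latter not called. HMGXB3, beside CSF1R, changed by -0.29. The neighbors of KITLG differed in sign, with -0.27 for TMTC3 and 0.63 for DUSP6.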
